A study of Mus musculus with 12 samples.

Results

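BN1-Tie2-EGFP cells were examined for transcripts of 10 enzymes that remove methyl groups from chromatin and need molecular oxygen to do so. The 10 genes were chosen by name among the 45706 genes in the table of transcript levels, and all 10 were found and passed the filter on low values. They comprised 7 histone demethylases of the Jumonji C (JmjC) class (Kdm2b, Kdm3a, Kdm4a, Kdm4b, Kdm4c, Kdm5b and Kdm6b) and the 3 TET enzymes (Tet1, Tet2 and Tet3), which act on methylated DNA. The question was which of them rose when the cells were placed in hypoxia, whether the rise was still present after a return to normoxia, and whether it recurred upon a repeat exposure.

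BN1 is an immortalized murine hepatoblastoma (HB) line labelled Cdkn2a KO, derived from a tumor that was driven by mutant forms of β-catenin and NRF2. All 4 groups carried the same vector, with EGFP under the control of the Tie2/Tek promoter, and pooled stable transfectants of this single line were used. UN cells were unsorted and were maintained in normoxia (21% oxygen). UH cells were UN cells kept in 1% oxygen for 2 days. SN cells were those with the highest EGFP after hypoxia, isolated by flow sorting and expanded in normoxia for about 10 days. SH cells were SN cells returned to 1% oxygen for 2 days. Each group had 3 RNA-seq libraries. The titles of all 4 groups call the cells EGFP+, including those that were not sorted.

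JmjC and TET enzymes share a catalytic mechanism in which iron, molecular oxygen and 2-oxoglutarate are consumed to hydroxylate a methyl group, with succinate and carbon dioxide as products. Their activity can therefore fall when oxygen is scarce, and several of their genes are known targets of the hypoxia-inducible factors (HIFs). Within the JmjC class, each subfamily is known for its own histone lysines, and most of these marks, such as methylated H3K9 and H3K27, are associated with silent chromatin, whereas methylated H3K4 is found at active promoters and methylated H3K36 over transcribed genes. TET enzymes oxidize 5-methylcytosine to 5-hydroxymethylcytosine and beyond, which is the first step of active DNA demethylation.

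Levels are given as TPM, the share of a library's transcripts that a gene accounts for after correction for transcript length and scaling to a fixed total, so that the levels of different genes may be set side by side. The read depth behind each value is unknown and precision rests on the spread among 3 libraries. All 4 groups were fitted jointly in limma, as log2(TPM + 1), over 18909 genes that averaged 0.1 TPM or more. A gene was taken to rise or fall when its Benjamini-Hochberg adjusted p was under 0.05, and was called 2-fold when its log2 fold change also exceeded 1 in size. The labels do not say whether libraries of a group came from separate cultures, so p-values measure only the spread between these libraries.

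Some properties of the libraries bear on what follows. The median gene was 0.19 lower on the log2 scale in UH than in UN cells. The median change was 0.00 when the libraries were rescaled by the median of ratios. The UH values of the genes that rose are therefore also given relative to the first of these medians. Among genes averaging 1 TPM or more the median was -0.32, so that these relative values may correct only part of the shift. UH replicate 1 was the lowest of the UH libraries for 10 of 10 demethylases, against 57.2% of all genes tested, and SH replicate 3 was the lowest of the SH libraries for 8 of 10, against 51.0%. UN replicate 1 stood apart in the summed TPM of 10 fibroblast and stellate cell markers, which was 5161, as compared to 1323 and 1176 in the other UN libraries. These sums were 4853 to 7134 in UH, 201 to 211 in SN and 56.6 to 77.9 in SH cells, and 2 of the 10 markers (Lum and Thy1) were below 1 TPM throughout. The markers did not all move with the sum. Of the 9 tested, 3 rose and 3 fell in UH relative to UN cells, where 13.0% of all genes rose and 33.5% fell. Summed over 10 hepatoblast and hepatocyte markers the range was 185 to 396 in UN, 266 to 295 in UH, 120 to 167 in SN and 98.8 to 178 in SH cells. In SN and SH cells these sums were carried by Krt18, which was found in every library at 63.5 TPM or more and averaged 93.4 TPM in UN and 126 TPM in SN cells, whereas 6 of the 9 markers tested were past 2-fold lower in SN than in UN cells, among them Dlk1 (58.7 to 0.389 TPM), Igf2 (95.7 to 3.56), Krt8 (65.5 to 4.78) and Hnf4a (3.85 to 0.263), and 1 (Afp) was higher. Alb did not exceed 4.23 TPM, and Apoa1 and Ttr were below 1 TPM throughout. Of 10 endothelial markers, 7 were below 1 TPM in every library, and the sums were 2.44 to 4.15 in UN, 18.3 to 28.5 in UH, 3.54 to 4.58 in SN and 8.14 to 9.49 in SH cells. The UH sums were carried by Flt1 (17.8 to 28.0 TPM). Tek, whose promoter drove the EGFP used for sorting, averaged 0.133 TPM in UN, 0.156 in UH, 2.49 in SN and 3.04 in SH cells. Of 10 leukocyte markers, 7 were likewise below 1 TPM throughout, with sums of 5.30 to 10.1, 21.6 to 22.9, 9.93 to 14.7 and 59.8 to 63.8 in the same order, and with Ptprc at or below 0.121 TPM. Of the 6 leukocyte markers tested, 3 were higher and 0 lower in SH than in SN cells, by a log2 fold change of up to 2.66. Over all genes, 21.5% were higher and 19.5% lower in that comparison. Mitochondrially encoded genes took 5.18% to 7.55% of the TPM in UN, 1.67% to 2.53% in UH, 7.64% to 8.38% in SN and 2.66% to 4.68% in SH libraries. The part of these markers and shares in the results below was not tested. As these are bulk samples, fewer cells that express a gene and less RNA per cell cannot be told apart.

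In the first exposure to hypoxia, 4 of the 10 demethylases rose (Kdm3a, Kdm4b, Kdm5b and Kdm6b) and 0 fell. Over all genes tested, 13.0% rose and 33.5% fell. The rise exceeded 2-fold for 3 of the 4 (Kdm3a, Kdm4b and Kdm6b), as it did for 5.46% of all genes. All 3 UH libraries were above all 3 UN libraries for these 4 genes and for 14.9% of all genes, and below them for none of the 10 and for 36.2% of all genes. The median log2 fold change of the 10 was 0.60, against -0.19 for all genes. The direction of all genes rested on the scaling. With median-of-ratios scaling 5 members rose and 0 fell. Past 2-fold, 1564 of all genes were then higher and 1217 lower, against 1032 and 2222 as reported. The 5 members were counted by adjusted p alone, for which the share of all genes under that scaling is not given. In the repeat exposure, 6 of the 10 rose in SH relative to SN cells and 0 fell, where 21.5% of all genes rose and 19.5% fell. The rise exceeded 2-fold for 5 of them (Kdm3a, Kdm4b, Kdm5b, Kdm6b and Tet2), as it did for 7.47% of all genes, and the median of the 10 was 1.01, against 0.03 for all genes. SH and SN libraries did not overlap for 7 members that were higher and 1 that was lower in SH cells, where the shares of all genes were 29.7% and 27.1%. Kdm3a, Kdm4b, Kdm5b and Kdm6b rose in both exposures, as did 7.95% of all genes, and all but Kdm5b did so by over 2-fold in both, as did 2.97%.

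**Figure D1:**
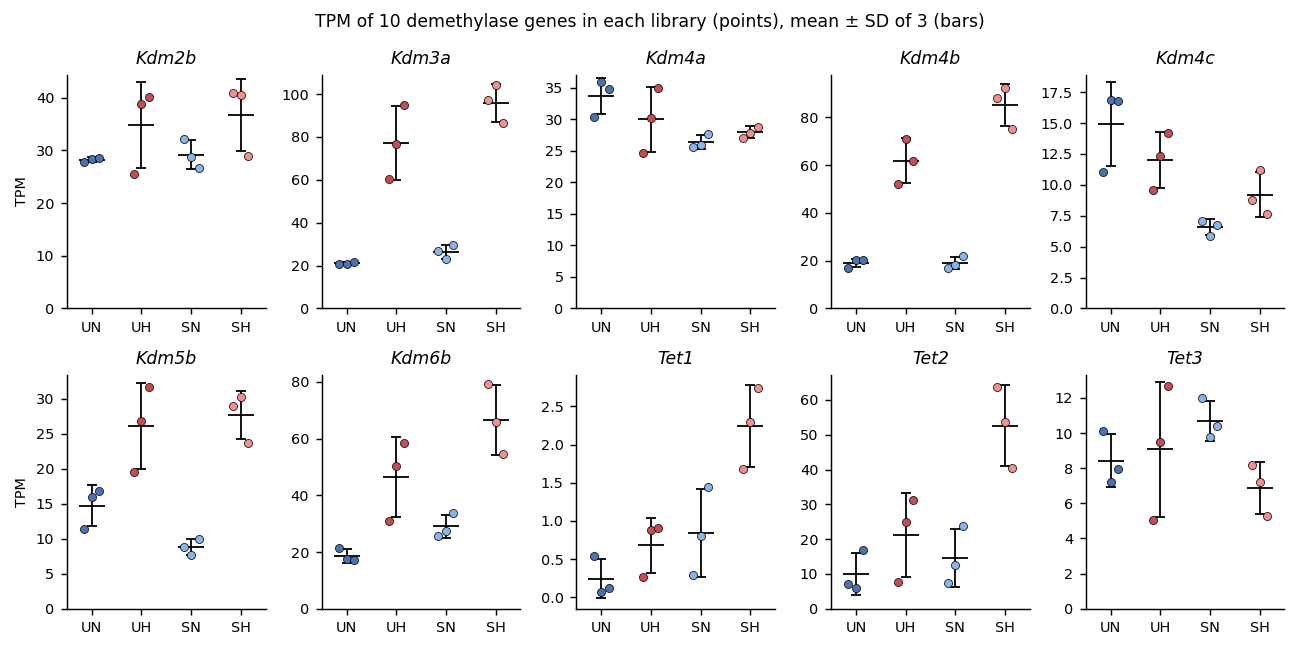
TPM of each of the 10 demethylase genes (vertical axes, linear, 1 scale per gene) in the 12 libraries. Points are libraries of UN, UH, SN and SH cells, and bars are the mean ± SD of 3; Kdm3a and Kdm4b are high in all UH and SH libraries and low in all UN and SN libraries, whereas Kdm2b and Kdm4a show no such alternation.

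Kdm3a, which removes mono- and dimethylation from H3K9 and is a well-known HIF target, rose the most in the first exposure. Its TPM was 20.8, 20.8 and 21.8 in the UN libraries and 60.4, 76.6 and 94.7 in the UH libraries. It was 26.7, 23.2 and 29.7 in SN and 97.4, 104 and 86.6 in SH libraries. The hypoxic and normoxic libraries thus did not overlap in either exposure. The mean rose 3.66-fold in UH over UN cells (log2 fold change 1.80, SE 0.150, adjusted p = 2.44e-06 by limma), which was 1.99 relative to the median of all genes, and 3.62-fold in SH over SN cells (1.82, SE 0.150, adjusted p = 4.04e-06). The difference between both responses was 0.02, with a 95% interval of -0.44 to 0.49.

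Kdm4b, which removes trimethylation from H3K9, alternated in the same way. The UN libraries held 16.9, 20.1 and 20.1 TPM and the UH libraries 52.2, 71.1 and 61.9 TPM. The SN libraries held 16.9, 18.2 and 22.0 TPM and the SH libraries 88.1, 92.3 and 75.2 TPM. Each SH library was therefore above each UH library, while the UN and SN libraries were interleaved. The log2 fold change was 1.64 in the first exposure (SE 0.140, adjusted p = 3.03e-06 by limma), or 1.83 relative to the median of all genes, and 2.11 in the repeat exposure (SE 0.140, adjusted p = 8.86e-07). The means rose 3.24-fold and 4.48-fold. Kdm4b in the repeat exposure was the largest log2 fold change of any of the 10 genes in either exposure.

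The 2 close relatives of Kdm4b among the 10 genes did not pass the test in either exposure. Kdm4a, which demethylates H3K9 and H3K36, was found at 30.4, 35.8 and 34.7 TPM in UN and 24.7, 30.1 and 35.0 TPM in UH libraries, and at 25.6, 25.9 and 27.6 TPM in SN and 27.0, 27.8 and 28.8 TPM in SH libraries. Its libraries overlapped in both exposures, with a log2 fold change of -0.17 (95% interval -0.44 to 0.10) in the first and 0.08 (-0.19 to 0.35) in the repeat exposure. Kdm4c, another H3K9 and H3K36 demethylase, had 11.0, 16.9 and 16.8 TPM in UN and 9.61, 12.3 and 14.2 TPM in UH libraries. It had 7.08, 5.88 and 6.79 TPM in SN and 8.74, 11.2 and 7.67 TPM in SH libraries. Its UN and UH libraries overlapped (-0.28, 95% interval -0.71 to 0.15), and all 3 SH libraries exceeded the SN libraries at 0.42 (-0.02 to 0.85), which did not pass the test (adjusted p = 0.117 by limma) but passed with median-of-ratios scaling (0.43, adjusted p = 0.0412). The first-exposure values of Kdm4a and Kdm4c changed sign, to 0.18 and 0.05, under median-of-ratios scaling.

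Kdm6b, which removes trimethylation from H3K27, stood at 21.5, 17.4 and 17.1 TPM in UN libraries and at 30.9, 50.2 and 58.5 TPM in UH libraries. In the sorted cells it stood at 25.8, 27.4 and 33.7 TPM in SN and at 79.3, 65.8 and 54.7 TPM in SH libraries. No normoxic library reached the hypoxic libraries of its own exposure, although SN replicate 3 was above UH replicate 1. It rose 2.49-fold in UH over UN cells (log2 fold change 1.23, SE 0.217, adjusted p = 0.000635 by limma, 1.42 relative to the median of all genes) and 2.30-fold in SH over SN cells (1.17, SE 0.217, adjusted p = 0.00119), and the difference between both responses was -0.07 (95% interval -0.74 to 0.60). An opposite-strand transcript, Kdm6bos, overlaps this gene and had a mean of 2.60 TPM.

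Kdm5b, which removes di- and trimethylation from H3K4, was the 1 member that was both hypoxia-responsive and lower in sorted normoxic cells. Its levels were 11.4, 15.9 and 16.8 TPM in UN and 19.6, 26.8 and 31.7 TPM in UH libraries. They were 8.80, 7.62 and 10 TPM in SN and 28.9, 30.3 and 23.7 TPM in SH libraries. All SN libraries were below all UN libraries, while the UH and SH libraries overlapped. The rise was 1.77-fold in the first exposure (log2 fold change 0.78, SE 0.193, adjusted p = 0.00593 by limma, 0.97 relative to the median of all genes) and 3.14-fold in the repeat exposure (1.55, SE 0.193, adjusted p = 7.74e-05). The 2 rises differed by 0.77, which did not pass the test over all genes (95% interval 0.17 to 1.37, adjusted p = 0.0654), and their hypoxic end points were within 0.10 of each other (SH vs UH, -0.32 to 0.52).

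Kdm2b, an H3K36 demethylase that also binds unmethylated CpG islands through a zinc finger, had 27.7, 28.3 and 28.5 TPM in UN and 25.5, 38.8 and 40.2 TPM in UH libraries. Its SN libraries had 32.1, 28.7 and 26.7 TPM and its SH libraries 40.8, 40.5 and 28.9 TPM. In both exposures 1 hypoxic library, UH replicate 1 and SH replicate 3, fell within or below the normoxic range. The log2 fold changes of 0.27 and 0.31 did not pass the test (adjusted p = 0.241 and 0.189 by limma), but the first was 0.61 with median-of-ratios scaling (adjusted p = 0.00281) and 0.47 without UH replicate 1 (adjusted p = 0.0234), and the second was 0.42 with quantile normalization (adjusted p = 0.0305). Rnf34, which overlaps Kdm2b on the opposite strand, had a mean of 24.2 TPM.

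The 3 TET genes differed from each other in level and in response. Tet2 had 7.16, 5.88 and 16.8 TPM in UN, 7.73, 24.9 and 31.2 TPM in UH, 7.35, 12.6 and 23.8 TPM in SN and 63.7, 53.7 and 40.5 TPM in SH libraries. The SH libraries were above all others, while the UN, UH and SN libraries overlapped widely. Tet2 rose 3.61-fold in SH over SN cells (log2 fold change 1.90, SE 0.520, adjusted p = 0.0119 by limma), but its call was lost without SN replicate 1 (1.52, adjusted p = 0.0568). In the first exposure its log2 fold change was 0.95 (SE 0.520, 95% interval -0.19 to 2.09, adjusted p = 0.159), and without UH replicate 1 it was 1.53 (adjusted p = 0.0228). The difference between its 2 responses was 0.95 with an interval of -0.66 to 2.56 (adjusted p = 0.377), so that a larger response to the repeat exposure was not shown.

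Tet1 was scarce in every group. Its TPM was 0.541, 0.0720 and 0.125 in UN, 0.266, 0.876 and 0.903 in UH, 0.290, 0.798 and 1.44 in SN and 1.68, 2.29 and 2.74 in SH libraries. Each SH library exceeded every other library. Its log2 fold change in SH over SN cells was 0.85 (SE 0.250, adjusted p = 0.0177 by limma), a 2.66-fold rise of the mean that the added 1 compresses, and this call was lost with a pseudocount of 0.1 (1.50, adjusted p = 0.0680), with quantile normalization (0.56, adjusted p = 0.107) and without SN replicate 1, SH replicate 2 or SH replicate 3 (0.62 at the lowest, adjusted p up to 0.0806).

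Tet3 had 10.1, 7.22 and 7.94 TPM in UN, 5.03, 9.49 and 12.7 TPM in UH, 12, 9.80 and 10.4 TPM in SN and 8.16, 7.24 and 5.26 TPM in SH libraries. It was the single member whose SH libraries were all below the SN libraries, while its UN libraries lay within the UH range. Neither response passed the test, at 0.03 in the first exposure (95% interval -0.55 to 0.61) and -0.59 in the repeat exposure (-1.17 to -0.01, adjusted p = 0.0996 by limma). The latter passed with quantile normalization (-0.60, adjusted p = 0.0427), in a fit of SN and SH cells alone (adjusted p = 0.0369) and without UH replicate 1 (adjusted p = 0.0246).

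**Figure D2:**
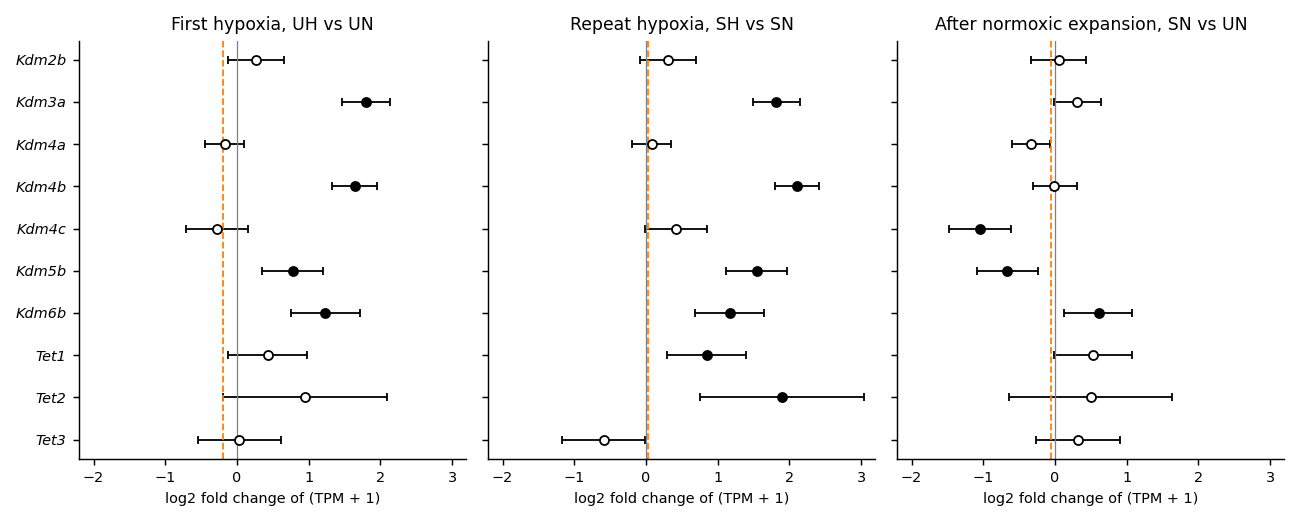
Log2 fold change of log2(TPM + 1) with its 95% interval for each gene in UH vs UN, SH vs SN and SN vs UN; filled points passed the test at adjusted p under 0.05 and the dashed line is the median of all genes. Kdm3a, Kdm4b, Kdm5b and Kdm6b are filled in both hypoxia panels, and Kdm4c, Kdm5b and Kdm6b in the normoxia panel.

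Short sequences around the HIF core motif are shown for those hypoxia-responsive members whose promoter windows were at hand, with Kdm4c as a gene that did not pass the test as reported. Windows of 300 bases (250 before to 50 after a RefSeq transcript start, GRCm38.p6) were searched on both strands for ACGTG and GCGTG, whose reverse complements are CACGT and CACGC. A palindromic CACGTG counts on either strand. Of 32851 such windows of all genes, 14380 (43.8%) held at least 1 match. Of the 10 members, 8 had windows, 14 in all, of which 8 windows belonging to 5 members (Kdm2b, Kdm3a, Kdm4c, Kdm5b and Tet2) held a match. Windows of Kdm4b and Kdm6b were not used here. Each line gives 30 bases, 5′ to 3′ on the gene's strand, with the motif in capitals, its position relative to the start and the interval in GRCm38.p6.
Kdm3a, motif at -27, chr6:71632927-71632956, minus strand: ccgggaggctgtGCGTGtcttgtgagagag
Kdm5b, motif at -229, chr1:134559937-134559966, plus strand: ccaaaatatatgACGTGattgatggattgt
Kdm5b, motif at -19, chr1:134560147-134560176, plus strand: cggaggagcactGCGTGgggtagcggcaag
Tet2, motif at -16, chr3:133544389-133544418, minus strand: tcgcatgccagtCACGTccgccccctcggc
Kdm4c, motif at -85, chr4:74251782-74251811, plus strand: agtttagagaccCACGTgacccagagagcg

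A match of these letters is no evidence of a bound site, and whether matches go with the response was not tested. Kdm4b and Kdm6b were not searched, and the calls of Kdm2b, Kdm4c, Tet1, Tet2 and Tet3 changed with the settings or libraries. Kdm3a, Kdm5b and Tet2, which rose in at least 1 exposure, held matches. Matches were also found for Kdm2b and Kdm4c, which as reported passed the test in neither. The Kdm4c line is from window 2 of this gene, which held 6 matches and lies inside its span (74242497 to 74405860 of chromosome 4). Window 1 of Kdm4c, at the 5′ end of that span, held 0. Of the Kdm3a windows, only window 1 held a match. Tet1, which rose in the repeat exposure, held no match within its window, as did Kdm4a and Tet3. The Tet1 window, with upstream bases 62887325 to 62887574 of chromosome 10, lies inside its span, whose 5′ end is at 62908996. The Tet3 window, with upstream bases 83441679 to 83441928 of chromosome 6, also lies inside its span, whose 5′ end is at 83459084. The 5′ ends of the Tet1 and Tet3 spans were therefore not searched. Windows of Kdm2b and Tet2, which held matches, lie inside their spans as well. By GENCODE M21 (GRCm38), Kdm3a spans 71588972 to 71632990 of chromosome 6 on the minus strand, Kdm4b 56326062 to 56402870 of chromosome 17 on the plus strand, Kdm5b 134560171 to 134635285 of chromosome 1 on the plus strand, Kdm6b 69398508 to 69413675 of chromosome 11 on the minus strand and Tet2 133463679 to 133545139 of chromosome 3 on the minus strand.

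The persistence of these changes was asked by comparing SN with UN cells, both in normoxia. Sorting for EGFP and the earlier hypoxia cannot be told apart in this comparison. The UN libraries also enter the comparison with UH cells, and the SN libraries that with SH cells, so that the values of these comparisons are not independent. Kdm6b was higher and Kdm4c and Kdm5b were lower in SN cells, where 13.0% of all genes were higher and 20.9% lower. Kdm4c was the 1 member to fall by over 2-fold, as did 7.57% of all genes. SN and UN libraries did not overlap for 2 members that were higher and 3 that were lower in SN cells, against 20.3% and 28.7% of all genes. Kdm6b was 1.55-fold higher, with all SN libraries (25.8 to 33.7 TPM) above all UN libraries (17.1 to 21.5 TPM), but its log2 fold change of 0.61 (SE 0.217, adjusted p = 0.0493 by limma) was close to the threshold. Without UN replicate 2 or 3, UH replicate 2, or any 1 of the SN or SH libraries it no longer passed (adjusted p up to 0.166 by limma). The values were 0.50 to 0.71 over all left-out libraries. Nor did Kdm6b pass with no filter (adjusted p = 0.0843) or with no trend (0.0559). Kdm5b fell to 0.600 of its UN mean (-0.67, SE 0.193, adjusted p = 0.0195), and this call was lost without SN replicate 1 or 2 or UN replicate 2 or 3 (-0.57 at the smallest, adjusted p up to 0.0813). Kdm4c fell to 0.442 of its UN mean (-1.05, SE 0.198, adjusted p = 0.00175), with its highest SN library at 7.08 and its lowest UN library at 11.0 TPM, and it passed the test whichever library was left out (-1.24 to -0.95). Without UN replicate 1, the library with the high fibroblast marker sum, the values were -1.24 for Kdm4c, -0.83 for Kdm5b and 0.71 for Kdm6b.

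Neither of the 2 genes with the largest first response was shown to persist. Kdm4b averaged 19.0 TPM in both UN and SN cells (log2 fold change -0.01, 95% interval -0.31 to 0.30, or 0.11 with median-of-ratios scaling). Kdm3a averaged 21.1 ± 0.592 TPM in UN and 26.5 ± 3.24 TPM in SN cells (SD, n = 3), and although its lowest SN library (23.2 TPM) was above its highest UN library (21.8 TPM), the difference of 0.31 did not pass the test (-0.02 to 0.64, adjusted p = 0.139 by limma); with median-of-ratios scaling it was 0.42 and did. Kdm4a was lower in all SN than in all UN libraries and narrowly missed the threshold (-0.34, 95% interval -0.60 to -0.07, adjusted p = 0.0533 by limma). It passed without UN replicate 1 (-0.41, adjusted p = 0.0298), UH replicate 1 or UH replicate 3. It also passed with a filter at 1 TPM (adjusted p = 0.0480 by limma) and with quantile normalization (0.0309). The same held with a replicate block (0.0389) and in a fit of SN and UN cells alone (0.0298). For Kdm2b, Tet1, Tet2 and Tet3 the libraries of both groups overlapped, at 0.05, 0.53, 0.50 and 0.32, and the interval for Tet2 was wide (-0.64 to 1.63).

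SN cells were also set against UH cells, the hypoxic state that preceded sorting. Of the 10 members, 5 were lower in SN cells (Kdm3a, Kdm4b, Kdm4c, Kdm5b and Kdm6b) and 0 were higher, where 19.6% of all genes were lower and 30.4% were higher. With median-of-ratios scaling 7 were lower, with Kdm2b (-0.45, adjusted p = 0.0133 by limma) and Kdm4a (-0.39, adjusted p = 0.00331) in addition. All genes moved as well under that scaling. Past 2-fold, 2184 were lower and 1630 higher in SN cells, against 1734 and 2319 as reported. The 7 members were counted by adjusted p alone, without a matching share of all genes under that scaling. The log2 differences were -1.65 for Kdm4b (adjusted p = 1.81e-06 by limma), -1.49 for Kdm3a (6.69e-06), -1.45 for Kdm5b (6.3e-05), -0.77 for Kdm4c (0.00672) and -0.63 for Kdm6b (0.0308). The first 3 of these exceeded 2-fold, as did 9.17% of all genes in that direction. The Kdm6b libraries overlapped (25.8 to 33.7 TPM in SN and 30.9 to 58.5 TPM in UH). Its SN mean of 29.0 TPM lay between 18.7 in UN and 46.5 in UH cells. The Kdm6b call was lost without UH replicate 2 or 3 or SN replicate 1 or 2 (-0.44 at the smallest, adjusted p up to 0.127 by limma). It was also lost with no filter (adjusted p = 0.0555), without mitochondrially encoded genes (0.0584) and in a fit of SN and UH cells alone (0.0865).

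Under hypoxia, sorted and unsorted cells were compared directly. In SH relative to UH cells, 3 of the 10 members were higher (Tet1, Tet2 and Kdm4b) and 0 were lower, where 28.3% of all genes were higher and 13.4% lower. The median of the 10 was 0.22, against 0.17 for all genes. This balance rested on the scaling between libraries. With median-of-ratios scaling 1 member was higher (Tet1) and 2 were lower, Kdm4a (-0.30, adjusted p = 0.0183 by limma) and Kdm4c (-0.56, adjusted p = 0.0123), and the median of the 10 was 0.00. With quantile normalization 2 were higher and 2 lower. Of all genes, 1021 were higher and 1323 lower past 2-fold with median-of-ratios scaling, against 1447 and 1012 as reported. The rescaled counts of members rest on adjusted p alone, and no matching share of all genes is given for them. Tet1 was 0.96 higher (SE 0.250, adjusted p = 0.00954 by limma), and it passed the test whichever library was left out (0.76 to 1.09). Tet2 was 1.45 higher (SE 0.520, adjusted p = 0.0429), or 2.48-fold in mean TPM, and was the single member past 2-fold, as were 7.65% of all genes. Its call was lost with median-of-ratios scaling (1.24, adjusted p = 0.0601) and without UN replicate 1, UH replicate 1 or 2, SN replicate 2 or any of the SH libraries, and without UH replicate 1 the value was 0.87 (adjusted p = 0.169). Kdm4b was 0.46 higher (SE 0.140, adjusted p = 0.0199), which did not pass with median-of-ratios scaling (0.24, adjusted p = 0.107) or without UH replicate 1 or SH replicate 1 or 2 (0.35, 0.44 and 0.40). Kdm3a (0.33, adjusted p = 0.0994) and Kdm6b (0.54, adjusted p = 0.0651) did not pass.

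Whether the responses of sorted and unsorted cells differed was tested as the difference of both fold changes. None of the 10 members passed this limma test at adjusted p under 0.05, as compared to 22.0% of all genes. At an unadjusted p under 0.05 there were 3 of 10 (Kdm4b at 0.47, Kdm4c at 0.70 and Kdm5b at 0.77, all with the larger value in sorted cells), where the share of all genes was 36.3%. Without UN replicate 1 the differences of Kdm4c (0.89, adjusted p = 0.0197 by limma) and Kdm5b (0.93, adjusted p = 0.0199) passed, that of Kdm5b also passed without UH replicate 3 (0.92, adjusted p = 0.0357), and that of Tet3 passed without UH replicate 1 (-0.95, adjusted p = 0.0367) and with quantile normalization (-0.97, adjusted p = 0.0477). The median difference of the 10 was 0.33, close to the 0.25 of all genes.

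In order of level, the members exchanged places with oxygen. Kdm4a (33.6 TPM on average) and Kdm2b (28.2) led in UN cells and their libraries did not overlap. Kdm3a (77.3), Kdm4b (61.8) and Kdm6b (46.5) led in UH cells, where neighbors in the order overlapped down to Tet3. Kdm2b (29.2), Kdm6b (29.0), Kdm3a (26.5) and Kdm4a (26.4) led in SN cells, and neighbors among them overlapped. Kdm3a (96.0), Kdm4b (85.2), Kdm6b (66.6) and Tet2 (52.6) led in SH cells, with each overlapping the next. Tet1 was lowest in all 4 groups, with means of 0.246 to 2.24 TPM, and its libraries did not overlap those of the member above it in any group.

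Shares within a subfamily were calculated in each library, as they are not touched by scaling between libraries, and are given as a description. They were chosen after the levels had been seen. Kdm4b made up 28.2% ± 0.735 of the summed TPM of Kdm4a, Kdm4b, Kdm4c and Kdm4d in UN cells and 59.5% ± 3.61 in UH cells, and 36.4% ± 2.42 in SN and 69.2% ± 1.92 in SH cells (SD, n = 3 each). Its lowest hypoxic share was 55.6% and its highest normoxic share was 38.8%. Kdm3a made up 41.9% ± 2.41 of the Kdm3a, Kdm3b and Jmjd1c total in UN, 66.6% ± 2.59 in UH, 33.4% ± 2.71 in SN and 66.6% ± 1.02 in SH cells. The normoxic share of Kdm3a was lower in SN than in UN cells. Both relatives were higher there, Kdm3b at 31.8 against 18.9 TPM (0.72, adjusted p = 0.00816 by limma) and Jmjd1c at 0.95 (adjusted p = 0.00614).

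For the H3K27 demethylases, Kdm6b made up 44.4% ± 10.7 of the Kdm6a and Kdm6b total in UN, 82.0% ± 2.00 in UH, 60.2% ± 1.46 in SN and 81.0% ± 2.38 in SH cells. Kdm6a, its X-linked relative, fell from 24.1 to 10.3 TPM in the first exposure (log2 fold change -1.17, adjusted p = 0.00188 by limma) and was 19.1 TPM in SN and 15.4 TPM in SH cells (-0.29, adjusted p = 0.373). The SN shares of Kdm6b, 58.6% to 61.1%, were above those of UN cells, 36.4% to 56.5%. Kdm5b remained a minor member of its subfamily, at 10.9% ± 1.44 of the Kdm5a, Kdm5b and Kdm5c total in UN, 17.3% ± 1.18 in UH, 6.95% ± 0.390 in SN and 15.6% ± 0.860 in SH cells. Tet2 made up 50.8% ± 14.7 of the TET total in UN, 66.5% ± 6.23 in UH, 52.8% ± 14.7 in SN and 85.0% ± 1.56 in SH cells, with SH shares (83.5% to 86.6%) above every other library. Kdm2b, which passed the test in neither exposure, made up 22.8% ± 0.268 of the Kdm2a and Kdm2b total in UN, 25.4% ± 2.93 in UH, 19.6% ± 1.42 in SN and 22.7% ± 1.05 in SH cells, and its UN and UH shares overlapped.

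**Figure D3:**
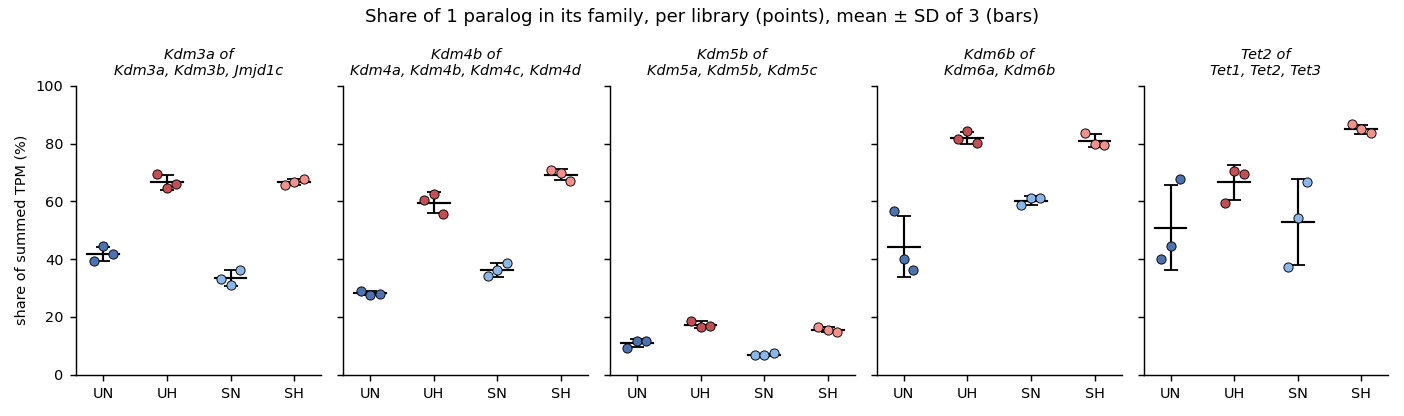
Share (%) of 1 paralog in the summed TPM of its subfamily, in each of the 12 libraries, with mean ± SD of 3. Kdm3a, Kdm4b and Kdm6b hold more of their subfamily in UH and SH than in UN and SN libraries, and Tet2 reaches 85.0% in SH cells.

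The genes whose pattern was most like that of the 3 members past 2-fold in both exposures were found by Pearson's r of log2(TPM + 1) over 12 libraries, among genes averaging 1 TPM or more. These libraries share 4 groups, so that r mostly reflects the group means and is given as a description. Kdm3a was closest to Hk2 (r = 0.995), which encodes a hexokinase, followed by Arhgap27 (0.991), Hyal1, Gm13715 and C230014O12Rik (0.987 each). Kdm4b was closest to Nat6 (0.995), Trappc6a and Gm16439 (0.990 each), Gpr35 (0.989) and Spidr (0.988). Kdm6b was closest to Npff (0.983), Ttc41 (0.980), Rarg (0.979), Pisd-ps1 (0.976) and Safb2 (0.972).

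The hypoxic response as such was checked with 10 reference genes (Egln1, Egln3, Ankrd37, Pdk1, Bnip3, Slc2a1, Vegfa, Car9, P4ha1 and Ndrg1). All 10 rose in UH over UN cells, with a median log2 fold change of 3.08, and 9 rose in SH over SN cells, with a median of 2.83. Car9, the exception, was listed at 0 in all SN libraries and did not exceed 0.0692 TPM in SH cells. The 4 demethylases that rose in both exposures, at 0.78 to 1.80 in the first, changed less than the median of these genes. In SN relative to UN cells 5 of the 10 reference genes differed, with Egln1, Ankrd37 and Slc2a1 higher and Egln3 and Pdk1 lower.

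Other enzymes that use or supply the same cofactors were examined as lists. The counts of each list stand beside 13.0% of all genes that rose and 33.5% that fell in the first exposure. In the repeat exposure these shares were 21.5% and 19.5%. All these shares are from the fit as reported and do not match counts given after rescaling. The 12 other JmjC histone demethylases that could be tested, of 14 listed, gave 3 that rose and 3 that fell in the first exposure and 3 that rose and 1 that fell in the repeat exposure, with medians of 0.06 and 0.04 against -0.19 and 0.03 for all genes. With median-of-ratios scaling the first-exposure counts were 6 and 2. Hr, an H3K9 demethylase, rose in both exposures (1.27 and 1.10, adjusted p = 9.42e-06 and 4.32e-05 by limma), though its highest level was 4.70 TPM, and Kdm8 fell 1.37 in the repeat exposure (adjusted p = 0.000184). Of 10 JmjC proteins with other or no assigned demethylase substrates, 2 rose in both exposures (Jmjd6 and Jarid2), while 5 fell in the first and 3 in the repeat exposure (2 in the first with median-of-ratios scaling). Jmjd7 fell past 2-fold in the first exposure (-1.01). Jmjd6, a lysyl hydroxylase, went from 93.8 to 480 TPM in the first exposure (2.34, adjusted p = 1.88e-08) and from 88.7 to 369 TPM in the repeat exposure (2.03, adjusted p = 9.71e-08). Jarid2, a partner of the H3K27 methyltransferase complex that has itself no catalytic activity, resembled Kdm5b in that it was higher in both hypoxic groups (0.80 and 1.47, adjusted p = 0.0197 and 0.000592) and lower in SN than UN cells (-1.38, adjusted p = 0.00120). Its first-exposure call was lost without UH replicate 2 or 3 and in a fit of UN and UH cells alone.

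Of the 9 AlkB family genes, several of which encode demethylases of DNA or RNA, 2 rose in each exposure, and 4 fell in the first and 1 in the repeat exposure, with medians of -0.37 and 0.19. The shares of all genes that fell were 33.5% and 19.5%, and the medians of all genes were -0.19 and 0.03. With median-of-ratios scaling 2 rose and 2 fell in the first exposure, with a median of -0.06. In the repeat exposure 3 rose and 2 fell with that scaling, with a median of 0.20. Alkbh5, an RNA demethylase, rose from 48.3 to 127 TPM (1.36, adjusted p = 2.54e-05 by limma) and from 49.4 to 111 TPM (1.14, adjusted p = 0.000139), whereas Alkbh8, a tRNA methyltransferase with an AlkB domain, fell from 13.8 to 4.43 TPM in the first exposure (-1.45, adjusted p = 9.42e-05). The 2 FAD-dependent histone demethylases, which do not use 2-oxoglutarate, did not rise. Kdm1b fell in the first exposure (-1.36, adjusted p = 0.000163), and the median of both was -0.98 there and -0.40 in the repeat exposure.

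**Figure D4:**
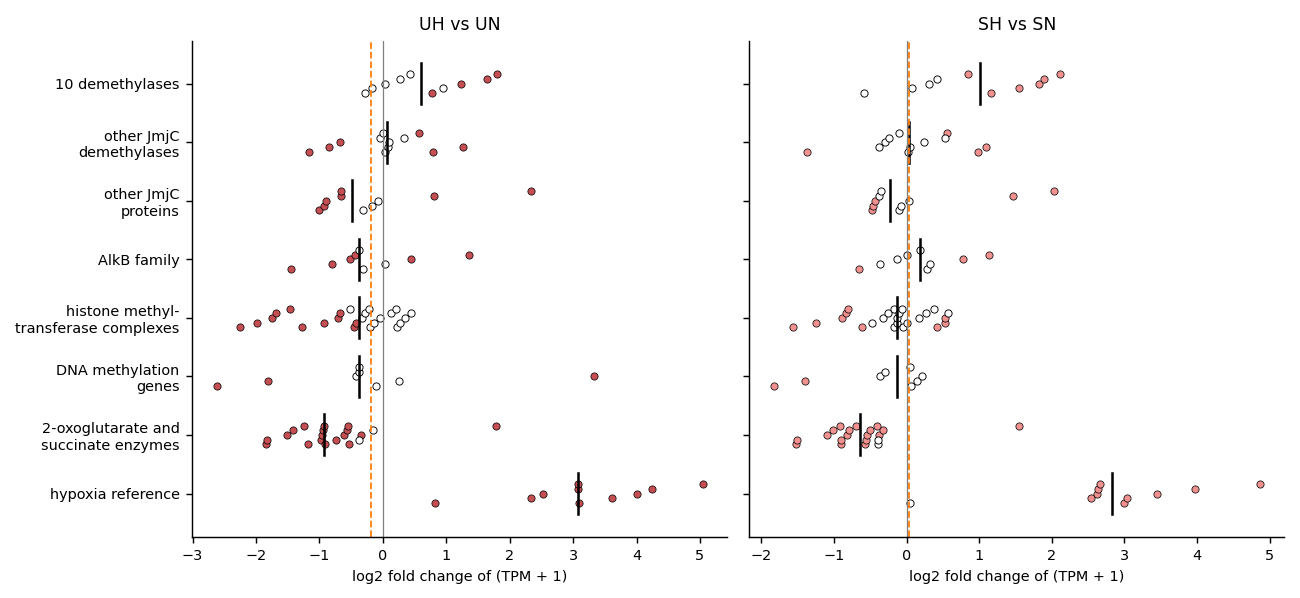
Log2 fold change of log2(TPM + 1) for genes of 8 lists in UH vs UN and SH vs SN; each point is a gene, filled where adjusted p was under 0.05, the black bar is the median of the list and the dashed line is the median of all genes. The demethylases lie to the right of all genes (medians 0.60 and 1.01), and the 2-oxoglutarate and succinate enzymes to the left (-0.92 and -0.63).

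The genes that place the marks were examined next. Of 24 genes for histone methyltransferases and subunits of their complexes (Eed and Suz12, which are not catalytic), 0 rose and 11 fell in the first exposure, and 3 rose and 6 fell in the repeat exposure; with median-of-ratios scaling these counts were 6 and 8, then 4 and 7. The median of the list was -0.38 in the first exposure, against -0.19 for all genes, and -0.05 after that scaling, against 0.00. Of all genes tested, without rescaling, 13.0% rose and 33.5% fell in the first exposure, and 21.5% rose and 19.5% fell in the repeat exposure. Past 2-fold in both exposures were Kmt5a, which places H4K20 monomethylation (-2.25 and -1.57, adjusted p = 1.88e-06 and 4.36e-05 by limma), and Nsd2, an H3K36 methyltransferase (-1.98 and -1.24, adjusted p = 3.7e-06 and 0.000174). Past 2-fold in the first but not in the repeat exposure were Suv39h1 (-1.74 and -0.81) and Suv39h2 (-1.68 and -0.62), both H3K9 methyltransferases, Ezh2 (-1.47 and -0.13), which methylates H3K27, and Nsd1 (-1.28 and -0.17). Of 8 genes for DNA methyltransferases and their partners, Dnmt1, the maintenance methyltransferase, fell from 99.0 to 28.0 TPM (-1.81, adjusted p = 1.48e-06) and from 105 to 38.8 TPM (-1.40, adjusted p = 1.61e-05). Its recruiting factor Uhrf1 fell from 83.2 to 12.6 TPM (-2.62, adjusted p = 1.43e-07) and from 118 to 33.0 TPM (-1.83, adjusted p = 3.51e-06). Dnmt3l, a cofactor of the de novo enzymes, was the 1 gene of this list that rose, in the first exposure, from 0.382 to 12.8 TPM (3.33, adjusted p = 3.9e-07), and it was 0.118 TPM in SN and 0.247 TPM in SH cells.

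Among 6 genes of base excision or TET partners, 2 rose and 2 fell in the first exposure and 2 rose and 3 fell in the repeat exposure, with medians of -0.06 (0.26 with median-of-ratios scaling) and -0.25. Ogt, the O-GlcNAc transferase that binds TET proteins, rose in both (1.28 and 1.58, adjusted p = 0.00195 and 0.000625 by limma), as did Cxxc5, a CXXC protein that binds Tet2 (1.29 and 1.07, adjusted p = 6.24e-06 and 3.84e-05). Mbd4, a glycosylase, fell in the first exposure (-1.09, adjusted p = 0.000683).

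The enzymes that make 2-oxoglutarate, or that turn over succinate and fumarate, which inhibit these demethylases, were mostly lower in hypoxia. Of 20 such genes, 17 fell and 1 rose in each exposure, with medians of -0.92 and -0.63, and with median-of-ratios scaling 13 and 17 fell. Idh1 fell from 58.5 to 15.6 TPM (-1.85, adjusted p = 4.29e-06 by limma) and from 37.5 to 12.1 TPM (-1.52, adjusted p = 2.93e-05). Idh3a (-1.82 and -1.51), Idh2 (-1.51 and -1.01) and Ogdh (-1.18 and -1.09) fell by over 2-fold in both exposures, and Fh1 (-1.41) and Suclg2 (-1.25) did so in the first. The exception was Ldha, lactate dehydrogenase A, whose side reaction can yield 2-hydroxyglutarate and which rose from 922 to 3170 TPM (1.78, adjusted p = 6.68e-08) and from 780 to 2289 TPM (1.55, adjusted p = 3.65e-07). These are transcript levels, and neither enzyme activity nor metabolites nor chromatin marks were measured in these files.

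**Figure D5:**
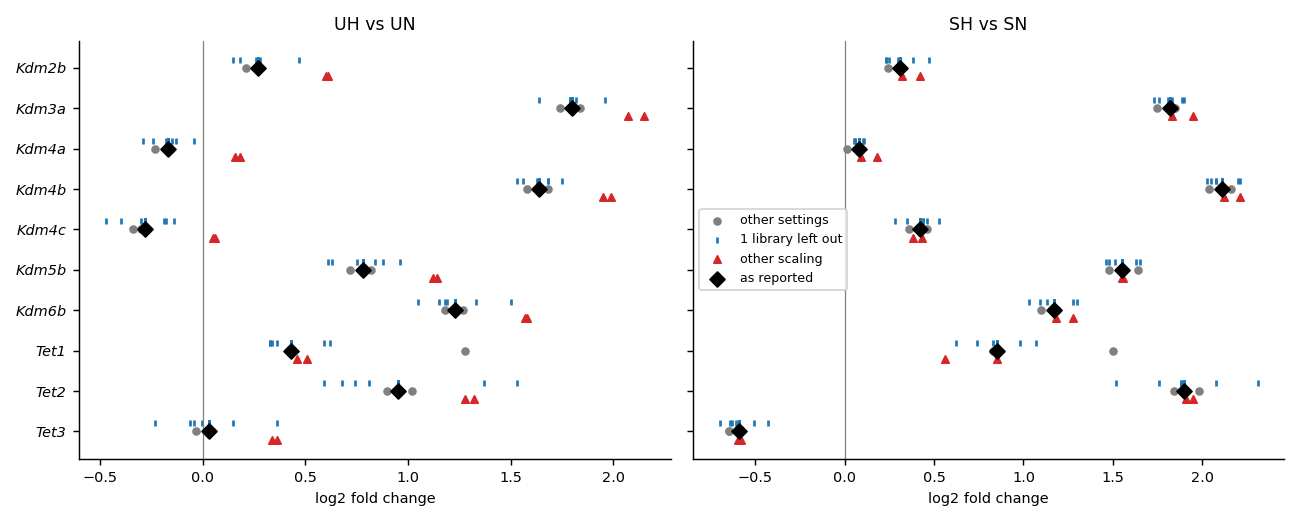
Log2 fold change of each demethylase in UH vs UN and SH vs SN as reported (diamonds), with other settings (grey), with other scaling between libraries (red, median of ratios or quantile) and with 1 library left out (blue). Kdm3a, Kdm4b, Kdm5b and Kdm6b stay to the right of 0 in both panels, whereas Kdm4a, Kdm4c and Tet3 cross 0 in the first.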

How the data were processed

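RNA of BN1-Tie2-EGFP cells was sequenced by the authors in 12 stranded, paired-end mRNA libraries, 3 for each of 4 groups. Per the labels and the study's methods the reads were processed with nf-core/rnaseq (3.12.0) against mm10, and the authors deposited gene-level TPM that sum to 1000000 in each library. The annotation release and the strand setting are not given in the sources used here. TPM hold no read depth, so no counting error or detection floor can be given.

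Groups were taken from the titles. The members, the related gene lists and the tests were chosen with earlier results of these data known. log2(TPM + 1) was fitted with limma (3.58.1, R 4.3.3), with 1 mean per group over all 12 libraries. Empirical Bayes with trend was used, with Benjamini-Hochberg adjustment over 18909 genes. The fit was also run on simulated data with independent noise and no shift between libraries. That run does not bear on the scaling or on single low libraries. The study's own test was made for counts and could not be applied to TPM. All 10 members are named, as are genes of the related lists past adjusted p 0.05 and 2-fold in either exposure, and the 5 closest genes by Pearson's r for members past both in both exposures. The subfamily shares and the genes outside this rule (Kdm3b, Jmjd1c, single markers, reference genes and overlapping genes) were chosen after their values were seen. Gene IDs were matched to GENCODE M21 (98.8%). Summaries and figures were made in Python (3.11.15) with pandas (2.3.3), numpy (2.4.6) and matplotlib (3.10.9). Alternatives were another pseudocount (0.1), no filter, a filter at 1 TPM, median-of-ratios scaling, quantile normalization, rescaling without mitochondrially encoded genes, a replicate block, a fit of only the groups compared, no trend, and leaving out each library.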

Additional observations from a re-analysis of the deposited data

Results flagged for a closer look

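Of 91 genes tested in the related lists, 11 (12.1%) had responses to hypoxia that differed between sorted and unsorted cells by the limma test of the difference itself (SH vs SN minus UH vs UN), a share below the 22.0% of all genes, and 6 of these also passed with median-of-ratios scaling; no member of the 10 demethylases was among them. The difference was 1.33 for Ezh2 (adjusted p = 0.00185; -1.47 in the first and -0.13 in the repeat exposure), 1.12 for Nsd1 (adjusted p = 0.0102), 1.05 for Suv39h2 (adjusted p = 0.0114), 0.93 for Suv39h1 (adjusted p = 0.0150) and 0.62 for the scarce Kdm4d (adjusted p = 0.0293). Dnmt3l had the opposite sign, at -3.17 (adjusted p = 6.91e-05; 3.33 in the first and 0.15 in the repeat exposure). These 6 passed as reported and with median-of-ratios scaling. Of the 12 other JmjC histone demethylases, 0 had a positive difference past the test with quantile normalization or without UH replicate 1. The Kdm4d call was therefore lost in both. Such alternatives are not given for the other flagged genes. The remaining 5, Uhrf1 at 0.80 (adjusted p = 0.0195), Alkbh3 at 0.71 (adjusted p = 0.00785), Suclg2 at 0.55 (adjusted p = 0.0313), Fh1 at 0.51 (adjusted p = 0.0373) and Ehmt2 at 0.50 (adjusted p = 0.0319), did not pass with median-of-ratios scaling, under which the median difference of all genes moved from 0.25 to 0.02.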

How the results depend on the processing

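The counts of members past the test kept within 1.5 times of those reported under most of 21 alternatives, which were 9 other settings and 12 left-out libraries, with the following exceptions. Quantile normalization gave 5 members past the test and 2-fold in UH vs UN (reported 3), 6 past the test in SN vs UN (3), and 1 in the difference of both responses (0). The single 2-fold call in SN vs UN became 0 with median-of-ratios scaling and quantile normalization. The single 2-fold call in SH vs UH became 2 with a pseudocount of 0.1, and 0 without a filter, with median-of-ratios scaling, with quantile normalization and in a fit of only the groups compared. The cause was not tested. With 1 library left out at a time, members past the test numbered 4 to 6 in UH vs UN, 4 to 7 in SH vs SN, 1 to 4 in SN vs UN, 4 to 7 in SN vs UH, 1 to 5 in SH vs UH and 0 to 2 in the difference, and those also past 2-fold 3 to 4, 4 to 6, 0 to 1, 3 to 3, 0 to 2 and 0 to 0. Log2 fold changes that crossed 0 with median-of-ratios scaling and quantile normalization, in this order, were those of Kdm4a (0.18 and 0.16) and Kdm4c (0.05 and 0.06) in UH vs UN, Kdm4b in SN vs UN (0.11 and 0.09), Kdm2b (-0.13 and -0.08) and Kdm5b (-0.11 and -0.07) in SH vs UH, and the differences of both responses of Kdm2b (-0.29 and -0.18) and Kdm3a (-0.32 and -0.12), with that of Kdm4a at -0.09 with median-of-ratios scaling only. Without mitochondrially encoded genes Tet3 in UH vs UN was -0.03 and Kdm4b in SN vs UN 0.02. None of these was past the test as reported. With 1 library left out, values on both sides of 0 were found for Tet3 in UH vs UN (-0.23 to 0.36), Kdm2b (-0.02 to 0.11) and Kdm4b (-0.11 to 0.07) in SN vs UN, Tet1 (-0.12 to 0.34) and Tet3 (-0.04 to 0.56) in SN vs UH, Kdm2b (-0.12 to 0.25), Kdm4a (-0.21 to 0.03) and Kdm5b (-0.08 to 0.25) in SH vs UH, and the differences of Kdm2b (-0.16 to 0.20), Kdm3a (-0.14 to 0.18) and Kdm6b (-0.33 to 0.12). With the replicate number as a block, 4 members were past the test in UH vs UN, 6 in SH vs SN, 3 in SN vs UN, 4 in SN vs UH, 3 in SH vs UH and 0 in the difference. Under the block Kdm6b was no longer past the test in SN vs UN (adjusted p = 0.0770 by limma) or SN vs UH (0.0506), and Kdm4a was past it in SN vs UN (0.0389). The numbers were not taken to pair the libraries, since same-numbered residuals correlated at -0.116 to 0.141 over 15 pairs and 2 of these were best matches. TPM retain no depth, so that the error of scarce transcripts such as Tet1 is known from 3 libraries only.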
